A study of Mus musculus with 4 samples.

Results

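The endothelin system is described here in mouse pancreatic islets through 7 genes, taken by gene name from the 55487 genes of the deposited table: the ligand genes Edn1, Edn2 and Edn3, the receptor genes Ednra and Ednrb, and the converting enzyme genes Ece1 and Ece2. All 7 were found in 1 row each, and all 7 passed the filter on low values. The members were chosen by gene name, with the knockout-to-control differences of the same 4 libraries already known. Those differences, and the p-values beside them, are therefore given as descriptions and not as independent evidence.

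The mice were C57BL/6, 30 weeks of age, and their islets were isolated fresh for poly(A)-enriched RNA sequencing. Knockout islets carried the genotype Ggcx flox/flox; Pdx1-Cre and control islets the genotype Ggcx flox/flox without Cre, so both genotypes carry the floxed allele. Each genotype has 2 libraries, and each library pooled the islets of 2 mice. Pdx1-Cre is active in the pancreatic lineage, which gives rise to endocrine, duct and acinar cells. No library combined Cre with intact Ggcx, so the effects of the transgene and of the loss of Ggcx cannot be told apart.

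Endothelins are short peptides that constrict blood vessels and signal between many cell types. Each is cut from a longer precursor, first by furin-like proteases to an inactive intermediate and then by endothelin-converting enzymes to the active peptide. Ednra and Ednrb encode G protein-coupled receptors that act mainly through Gq, phospholipase C and calcium release. The A receptor prefers endothelins 1 and 2 over endothelin 3, while the B receptor binds all of them with like affinity. In vessel walls the A receptor on smooth muscle drives constriction, and the B receptor on endothelium drives nitric oxide release and clears the peptide. Endothelin 3 and the B receptor are best known for their role in melanocytes and enteric neurons, which come from the neural crest, and endothelin-1 has been reported to stimulate insulin secretion from isolated mouse islets.

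The mature peptides of the 3 ligands have 21 residues each and are encoded by 63 bases, shown here because the ligand gene that rose and those that did not pass the test encode closely related peptides. They were read from GENCODE M21 transcripts on GRCm38, on the plus strand, and lie in exon 2 of each gene, at chr2:174761749-174761811 for Edn3, chr13:42303649-42303711 for Edn1 and chr4:120161951-120162013 for Edn2. Capitals mark bases of Edn1 and Edn2 that differ from Edn3.
Edn3: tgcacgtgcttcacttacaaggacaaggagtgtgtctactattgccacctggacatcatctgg
Edn1: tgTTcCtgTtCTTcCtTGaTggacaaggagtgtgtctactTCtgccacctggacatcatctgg
Edn2: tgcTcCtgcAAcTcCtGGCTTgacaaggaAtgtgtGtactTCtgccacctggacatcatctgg
Edn1 differed from Edn3 at 13 of the 63 bases (79.4% identity) and Edn2 at 15 (76.2%), while Edn1 and Edn2 differed from each other at 10 (84.1%). Of the differing bases, 11 in each gene lie in the first 21 bases, while 2 in Edn1 and 4 in Edn2 lie in the last 42. Over whole transcripts, the longest exact run that Edn3 shares is 21 bases with Edn1 and 21 bases with Edn2, and Edn1 and Edn2 share a run of 29 bases. The receptor genes share at most 15 bases and the converting enzyme genes at most 17. The sources used here do not give the read length.

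The libraries held between 47624630 and 51756221 reads assigned to genes. Values are normalized read counts, in which 1 read is worth about 1 unit. The targeted gene Ggcx, which encodes gamma-glutamyl carboxylase, had 234.2 and 643.4 normalized counts in knockout islets, against 3971 and 3981 in control islets. Limma tested 16589 genes and, at an adjusted p under 0.05, called 41 higher and 62 lower in knockout islets. Higher genes were 39.8% of these calls, and 54.2% of the calls (39 higher against 33 lower) when libraries were scaled to 1 upper quartile. Log2 fold changes, of knockout over control values after adding 1, carry their standard errors.

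Edn3 rose in knockout islets by about 1.48-fold, and the other 6 genes of the endothelin system did not pass the test. Edn3 is thus the 1 member called of 7, and none was called lower. By comparison 0.247% of all genes tested were called higher, 0.374% lower and 0.621% in either direction. At an unadjusted p under 0.05 limma also gave Edn3 and no other member, which is 14.3% of the 7, against 14.1% of all genes tested (2336 of 16589). The quasi-likelihood test of edgeR and DESeq2 on the recovered reads called Edn3 and no other member. The median log2 fold change was -0.12 over the 7 members and 0.00 over all genes tested. The groups of 4 members (Edn1, Edn3, Ednra and Ece2) did not overlap between the genotypes, while 45.0% of all genes tested had groups that did not overlap (22.0% with the knockout libraries higher and 23.0% with them lower).

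**Figure D1:**
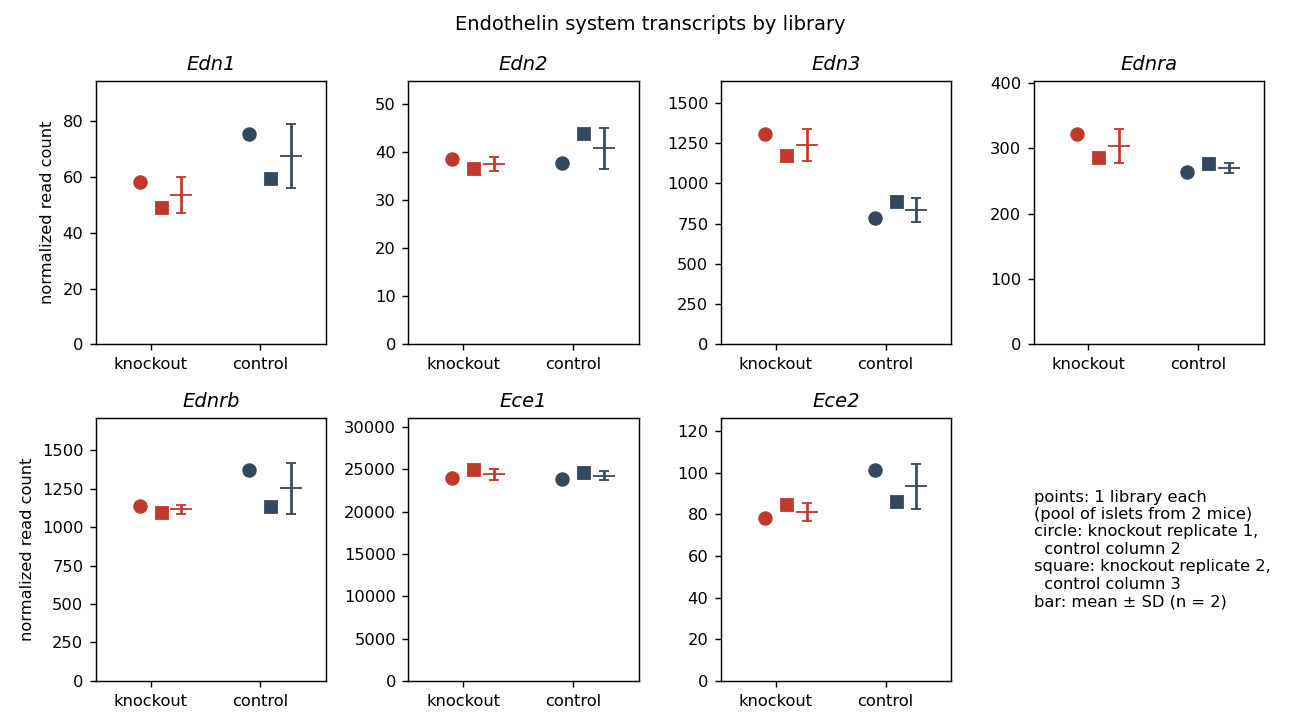
Normalized read counts (vertical axis, from 0, a separate scale for each gene) of the 7 endothelin system genes in knockout and control islets, 1 point per library, with bars for the mean ± SD (n = 2 libraries per genotype). Both knockout libraries of Edn3, at 1309 and 1168, lie above both control libraries, at 784 and 886, while the genotypes of Ece1 lie at the same level.

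Edn3, the ligand gene with a strong tie to the B receptor in development (ENSMUSG00000027524; GRCm38 chromosome 2, 174760619 to 174784042, plus strand), had 1309 and 1168 normalized counts in knockout replicates 1 and 2. It had 784 and 886 in control columns 2 and 3, a numbering that is the table's own. Both knockout libraries were higher than both control libraries, and the gap between the nearest pair, 282 normalized counts, was wider than the distance between libraries of either genotype. The mean was 1239 ± 99.98 in knockout islets and 835 ± 72.0 in control islets (SD, n = 2 libraries each). Its log2 fold change was 0.57 ± 0.09, with a limma adjusted p of 0.0366 and a 95% interval from 1.30-fold to 1.70-fold. In the authors' deposited table the log2 fold change of Edn3, there control over knockout, is -0.57 with a standard error of 0.12 and an adjusted p of 0.000298.

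By size, Edn3 stood at place 22 among the 41 genes called higher. The call was lost when knockout replicate 1, its highest library, was left out (limma adjusted p = 0.0548, log2 fold change 0.49 ± 0.11). It was kept when any other library was left out, and the log2 fold change ranged from 0.48 to 0.66 over the 4 fits without 1 library. The call also ended with no filter on low values (limma adjusted p = 0.217) and without limma's mean-variance trend (0.356), with the log2 fold change at 0.57 in both. In whole islets, a change in the number of cells that make a transcript and a change in the transcript per cell cannot be told apart.

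**Figure D2:**
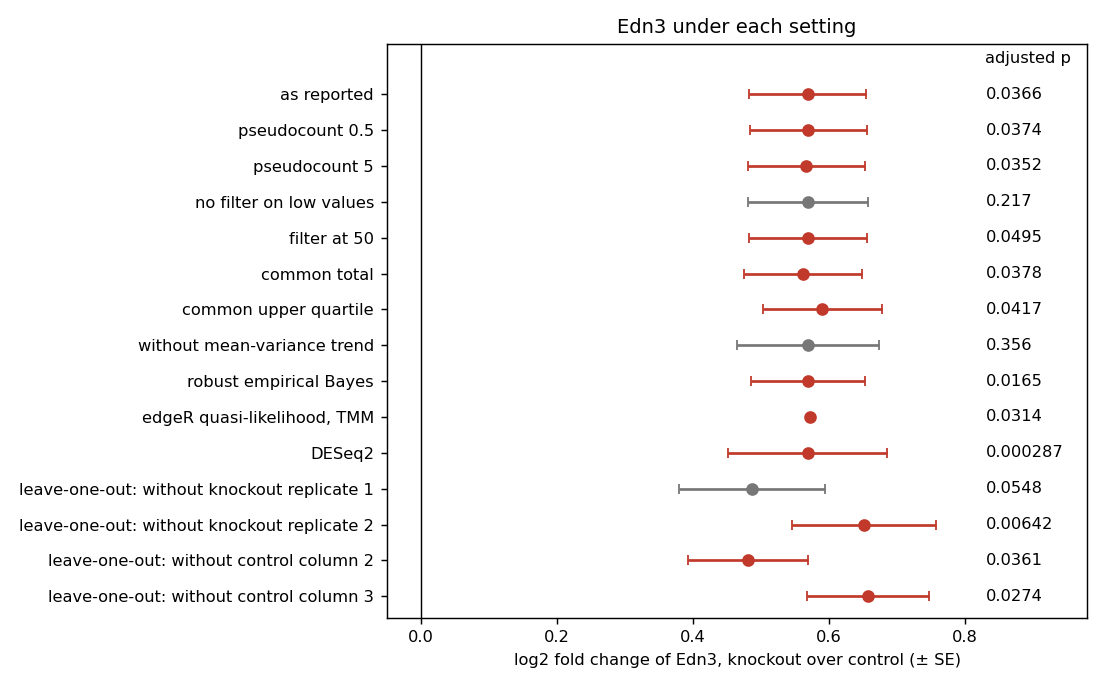
Log2 fold change of Edn3, knockout over control (horizontal axis, bars ± SE where the tool gives one), as reported and under each of 14 alternative settings (rows), with the adjusted p at the right. Red points passed an adjusted p of 0.05 and grey points did not: the estimate stays between 0.48 and 0.66, and 3 settings end the call.

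Edn1, whose peptide is the main vasoconstrictor of the family and a product of endothelium (ENSMUSG00000021367; chromosome 13, 42301476 to 42307990, plus strand), was less abundant than Edn3 per kilobase of exon. It had 58.3 and 48.9 normalized counts in knockout islets, against 75.6 and 59.4 in control islets. The groups did not overlap, but the highest knockout library and the lowest control library were 1.14 normalized counts apart. With a log2 fold change of -0.32 ± 0.22 (95% interval from 0.567-fold to 1.13-fold), Edn1 did not pass the test (limma adjusted p = 0.576). The estimate lay between -0.49 and -0.15 when 1 library was left out. The values rest on 51 to 74 reads per library, where counting error alone reaches 14.0% for the lowest library. An antisense gene shares 35 of the 2139 exon bases of Edn1 and is listed at 0 in all 4 libraries.

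Edn2, the ligand gene closer to Edn1 than Edn3 is in the stretch shown (ENSMUSG00000028635; chromosome 4, 120161206 to 120167360, plus strand), had 38.5 and 36.4 normalized counts in knockout islets, against 37.8 and 43.8 in control islets. The genotypes overlapped, since the higher knockout library lay between the control libraries. Its log2 fold change of -0.12 ± 0.24 did not pass the test (limma adjusted p = 0.880). With 37 to 45 reads per library, the 95% interval was wide, from 0.635-fold to 1.34-fold.

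Among the 3 ligand genes, Edn3 made up most of the transcript. Per kilobase of exon, it took 85.6% and 85.6% of the summed ligand level in knockout islets, against 75.7% and 78.8% in control islets. The level of Edn3 per kilobase was 11.7 and 12.4 times that of Edn1 in knockout islets, against 5.39 and 7.75 times in control islets. Both ratios were higher in each knockout library than in either control library. Both have Edn3 as numerator, so they restate its difference, and they are set against Edn1 and Edn2 at low read counts.

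Neither receptor gene passed the test. Ednra, which encodes the A receptor (ENSMUSG00000031616; chromosome 8, 77663031 to 77724464, minus strand), had 322.6 and 285.7 normalized counts in knockout islets, against 264.6 and 275.7 in control islets. Both knockout libraries were above both control libraries, with 10.05 normalized counts between the nearest pair. The log2 fold change was 0.17 ± 0.11 (95% interval from 0.943-fold to 1.34-fold; limma adjusted p = 0.565).

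Ednrb, which encodes the B receptor (ENSMUSG00000022122; chromosome 14, 103814625 to 103844402, minus strand), had 1138 and 1095 normalized counts in knockout islets, against 1369 and 1134 in control islets. The genotypes overlapped, and control column 2 stood above the other 3 libraries. The log2 fold change was -0.16 ± 0.09 (95% interval from 0.778-fold to 1.03-fold; limma adjusted p = 0.490). Without control column 2 it was -0.023, and without control column 3 it was -0.29. The interval of Ednrb ends below the lower end of that of the ligand gene Edn3, at 1.30-fold. Those of Edn1, Ece1 and Ece2 do so as well, and those of Edn2 and Ednra do not. Per kilobase of exon, Ednrb was 4.53 and 4.92 times as abundant as Ednra in knockout islets, against 6.64 and 5.28 times in control islets.

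Ece1 encodes the main endothelin-converting enzyme, a membrane metalloprotease that also cleaves other peptides (ENSMUSG00000057530; chromosome 4, 137862237 to 137965229, plus strand). It had 23961 and 24889 normalized counts in knockout islets, against 23894 and 24633 in control islets. The genotypes overlapped, and the libraries of each genotype differed by more than the means did. The mean was 24425 ± 657 in knockout islets and 24264 ± 523 in control islets (SD, n = 2 libraries each). This gave a log2 fold change of 0.0095 ± 0.05, with the narrowest interval of the 7 genes, from 0.932-fold to 1.09-fold (limma adjusted p = 0.963).

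Ece2, a related enzyme with an acidic pH optimum (ENSMUSG00000022842; chromosome 16, 20629828 to 20646485, plus strand), had 78.1 and 84.4 normalized counts in knockout islets, against 101.2 and 85.7 in control islets. The groups did not overlap, with the nearest libraries of the genotypes at 84.4 and 85.7. Its log2 fold change was -0.20 ± 0.18 (95% interval from 0.660-fold to 1.16-fold; limma adjusted p = 0.692). Of its 5110 exon bases, 2937 (57.5%) are also exons of the gene Gm49333 on the same strand, which is listed at 0 in all 4 libraries. Reads that fall there fit both genes, and none was counted for Gm49333. The sources used here do not say whether such reads were dropped or given to Ece2, so the level of Ece2 is uncertain.

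**Figure D3:**
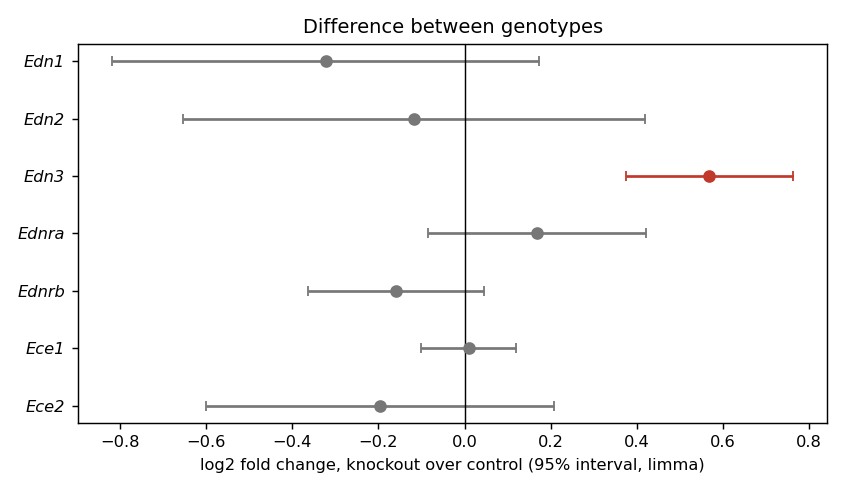
Log2 fold change, knockout over control (horizontal axis), of the 7 endothelin system genes with 95% intervals from limma (n = 2 libraries per genotype). The interval of Edn3 (red, adjusted p under 0.05) lies above 0, those of the other 6 genes (grey) include 0, and that of Ece1 is the narrowest.

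Levels of different genes were compared per kilobase of exon. Over the 4 libraries Ece1 averaged 4593 normalized reads per kilobase, a level above 98.3% of the tested genes. Ednrb averaged 277.5 and Edn3 252.0 normalized reads per kilobase, above 64.1% and 61.5% of the tested genes. Ednra averaged 52.4, Edn1 28.3, Edn2 26.8 and Ece2 17.1 normalized reads per kilobase. Ece1 was thus at least 1 order of magnitude above every other member in all 4 libraries.

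Neighbours in this order were not all distinct. Edn1 ranged from 22.9 to 35.3 and Edn2 from 24.9 to 30.0 normalized reads per kilobase, so these ligand genes did not differ beyond their spread. Edn3 and Ednrb changed places between the genotypes. In knockout islets Edn3 had 318 and 284 normalized reads per kilobase and Ednrb had 267 and 257, so the ligand gene was the higher. In control islets Edn3 had 191 and 215 and Ednrb had 321 and 266, so the receptor gene was the higher. These levels use the length of all annotated exons merged, and another length could change the order of these genes. On the 2173 exon bases that Ece2 does not share, its level would be 35.9 and 38.8 in knockout islets, against 46.6 and 39.5 in control islets. That would put Ece2 above Edn1 and Edn2, so its place at the end of the order is not settled.

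**Figure D4:**
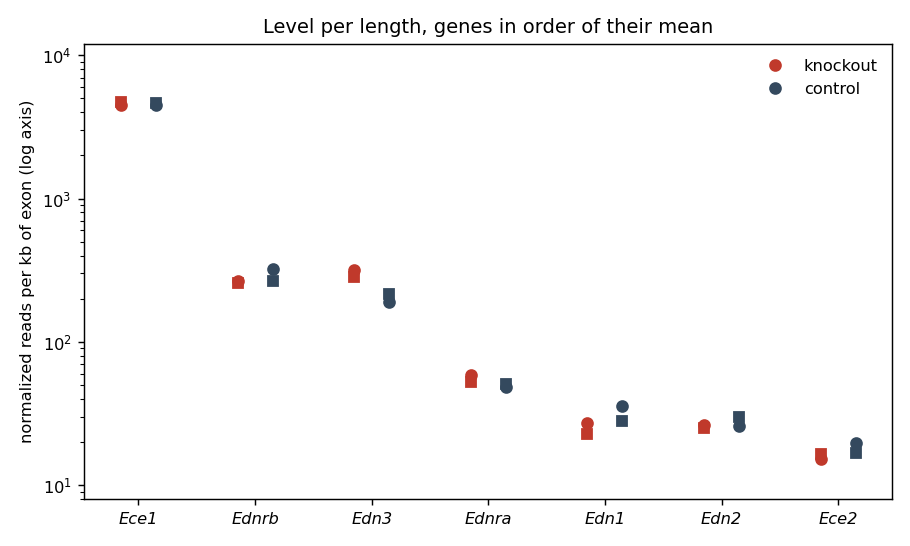
Normalized reads per kilobase of merged exons (vertical log axis) of the 7 genes in order of their mean over 4 libraries, with 1 point per library for knockout and control islets. Ece1 lies near 4593, Edn3 lies above Ednrb in knockout islets and below it in control islets, and Edn1 and Edn2 overlap.

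Genes whose values ran most like those of Edn3 were sought among 13395 tested genes with a mean of at least 50, by the Euclidean distance between log2(value + 1) values centred on each gene's mean over the 4 libraries. The nearest was Ttyh1 (distance 0.049), with 708 and 605 normalized counts in knockout islets, against 407 and 469 in control islets. Gimap8 (distance 0.063) had 173.8 and 156.3 in knockout islets, against 104.2 and 112.0 in control islets. Ppfia4 (distance 0.074) had 72.9 and 64.2 in knockout islets, against 45.0 and 51.6 in control islets. With 4 libraries, this nearness is a description only.

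Other genes on the path from endothelin precursor to response were taken from 4 lists. Of 52 tested genes of their 64, none passed the test in either direction (0.00%, against 0.621% of all genes tested), and 0 were called by edgeR or DESeq2. At an unadjusted limma p under 0.05 there were 12 (23.1%, against 14.1% of all genes tested). Leaving out 1 library gave 0 to 1 called gene: Agt, lower, without knockout replicate 1, Itpr1, higher, without knockout replicate 2, and Gucy1a1, higher, without control column 2. In the list of G proteins and phospholipases C, through which both receptors signal, none of 13 genes passed (2 at an unadjusted limma p under 0.05, and 0 called by edgeR or DESeq2), with a median log2 fold change of -0.01. Gnas, the gene of the stimulatory G protein, had 82113 and 84956 normalized counts in knockout islets, against 74812 and 76872 in control islets (0.14 ± 0.06; limma adjusted p = 0.312). The inhibitory G protein gene Gnai2 had a log2 fold change of 0.09 ± 0.05.

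Of 18 genes for calcium release channels, protein kinases C, small GTPase signalling, MAP kinases and receptor desensitization, none passed (0 called by edgeR or DESeq2). An unadjusted limma p under 0.05 was reached by 6 of them, 3 in each direction (33.3%, against 14.1% of all genes tested). Their median log2 fold change was -0.03, with Rhoa, the small GTPase, at -0.05 ± 0.05 and Arhgef12, which activates it, at -0.04 ± 0.05.

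Among 11 genes for the proteases that free or break down endothelins, 5 were abundant enough to test and none passed (1 at an unadjusted limma p under 0.05, and 0 called by edgeR or DESeq2; median 0.09). Furin, a protease that cuts endothelin precursors, had 3532 and 3395 normalized counts in knockout islets, against 3326 and 3490 in control islets, so the genotypes overlapped. Ctsa, a lysosomal carboxypeptidase that breaks down endothelin-1, had 3479 and 3327 in knockout islets, against 3137 and 2958 in control islets (0.16 ± 0.06; limma adjusted p = 0.233). Mme, the gene of neprilysin, a peptidase that degrades endothelins, had 5.20 and 3.84 normalized counts in knockout islets and was too low to test. Kel, whose human product cleaves the endothelin-3 precursor, and the mast cell chymase genes Cma1 and Mcpt4 were listed at 0 in all 4 libraries.

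In the list of other vasoactive peptides and receptors, none of 16 tested genes passed (3 at an unadjusted limma p under 0.05, and 0 called by edgeR or DESeq2), with a median of 0.10. Ace, which encodes angiotensin-converting enzyme, had 1462 and 1640 normalized counts in knockout islets, against 1892 and 1399 in control islets, so the genotypes overlapped (-0.07 ± 0.12; limma adjusted p = 0.854). Agt, the gene of the angiotensin precursor, had 1125 and 808 in knockout islets, against 1118 and 1334 in control islets (-0.36 ± 0.14; limma adjusted p = 0.311). Of the 14 alternatives, Agt passed the test in 1, without knockout replicate 1 (limma adjusted p = 0.0217, log2 fold change -0.59).

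Markers of cell types that could carry these genes are given beside them. Of 11 tested endothelial markers none passed (2 at an unadjusted limma p under 0.05, and 0 called by edgeR or DESeq2), and their summed level was 34246 to 36200 normalized counts in knockout islets, against 31374 to 35945 in control islets. Of 11 markers of pericytes and smooth muscle, the usual site of the A receptor, none passed either (2 at an unadjusted limma p under 0.05, and 0 called by edgeR or DESeq2), with a sum of 13244 to 13549 in knockout islets, against 11618 to 13764 in control islets. Control column 2 was the highest or next to highest library in both lists. It was also the highest for Edn1, Ednrb and Ece2 (101.2 normalized counts), but the lowest for Ednra (264.6). A link between these orders was not tested. No gene of these lists was at 0 in all libraries.

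The 6 alpha cell markers reported here all had log2 fold changes above 0, with a median of 0.25, and none passed the test (2 at an unadjusted limma p under 0.05, 0 called by edgeR and 1, Irx2, by DESeq2). Without knockout replicate 2, 2 of them passed (Irx1 and Irx2), and without control column 2, 1 passed (Irx2). Their summed level was 1398117 to 1682098 in knockout islets, against 1189208 to 1386029 in control islets. Most of this sum was Gcg, with 1552086 and 1290013 in knockout islets, against 1096489 and 1273993 in control islets. Over the 4 libraries the sum had the same order as Edn3, with knockout replicate 2 and control column 3 close together (1398117 and 1386029). The endothelin protease list summed in that order too, with 8957 and 8567 in knockout islets, 8264 and 8268 in control columns 2 and 3. Not every alpha cell marker had this order. Unlike Edn3, Irx1 (497.6 against 474.4) and Irx2 (771.4 against 626.4) were higher in control column 2 than in control column 3. Ghrl, the marker of ghrelin cells, had 173.8 and 211.0 in knockout islets, against 83.8 and 86.7 in control islets (limma adjusted p = 0.0329).

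Of 9 stellate cell and fibroblast markers, Dcn rose (408.0 and 296.3 normalized counts in knockout islets, against 174.7 and 114.0 in control islets; limma adjusted p = 0.0449), and the median of the list was 0.79. All 9 were above 0, and 7 of them reached an unadjusted limma p under 0.05. DESeq2 called Col1a1 as well as Dcn, and edgeR called Dcn alone. Leaving out 1 library gave 1 to 4 called markers. Without knockout replicate 2 they were Col1a1, Col1a2, Col3a1 and Dcn, without control column 2 Col3a1 and Dcn, and without control column 3 Thy1 alone, Dcn having lost its call (limma adjusted p = 0.0651). Their summed level was 2669 to 3435 in knockout islets, against 1825 to 2148 in control islets. The 9 Schwann cell markers had a median of 0.46, with none past the test (1 at an unadjusted limma p under 0.05, and 0 called by edgeR or DESeq2). Their summed level was 5067 to 5175 in knockout islets, against 5107 to 5700 in control islets. Most of this sum was Mbp, the 1 marker below 0 (-0.14 ± 0.06), while 8 markers were above 0.

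Of 4 delta cell markers Rbp4 rose (0.27 ± 0.05; limma adjusted p = 0.0475), a call lost without either knockout library (0.119 and 0.0879) or control column 3 (0.0651). Both PP cell markers were above 0 (median 0.33), with none past the test (2 at an unadjusted limma p under 0.05, and 0 called by edgeR or DESeq2), though Ppy was called higher without control column 2. The 10 beta cell markers had a median of -0.01, the 9 macrophage markers 0.02 and the 6 tested duct cell markers 0.16. None of these 25 genes passed (2 at an unadjusted limma p under 0.05, and 0 called by edgeR or DESeq2). Without control column 2 Mafa, a beta cell marker, was called lower, and without knockout replicate 2 Spp1, a duct cell marker, was called higher.

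All 10 acinar markers were below 0, and Try4, a trypsinogen gene that can share reads with its relatives, fell (279.97 and 273.3 normalized counts in knockout islets, against 460.8 and 460.8 in control islets; limma adjusted p = 0.0251). All 10 reached an unadjusted limma p under 0.05, and all 10 did so with edgeR. DESeq2 gave only 1 of the 10, as did limma without its mean-variance trend. Try4 was the only marker called by edgeR or DESeq2. Leaving out 1 library gave 1 to 10 called markers, with all 10 lower without knockout replicate 2, and Ctrb1 called beside Try4 without control column 2. The acinar markers had a median of -0.74 and a summed level of 7000 to 12007 in knockout islets, against 14512 to 16257 in control islets. The most abundant marker was Plvap in endothelium, Rgs5 in pericytes, Col3a1 in stellate cells, Mbp in Schwann cells, C1qa in macrophages, Ins2, Gcg, Sst and Ppy in the endocrine lists, Krt7 in duct cells and Pnlip in acinar cells. Again no gene of these lists was at 0 in all libraries, and the part of any of these cell types in the higher Edn3 was not tested.

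**Figure D5:**
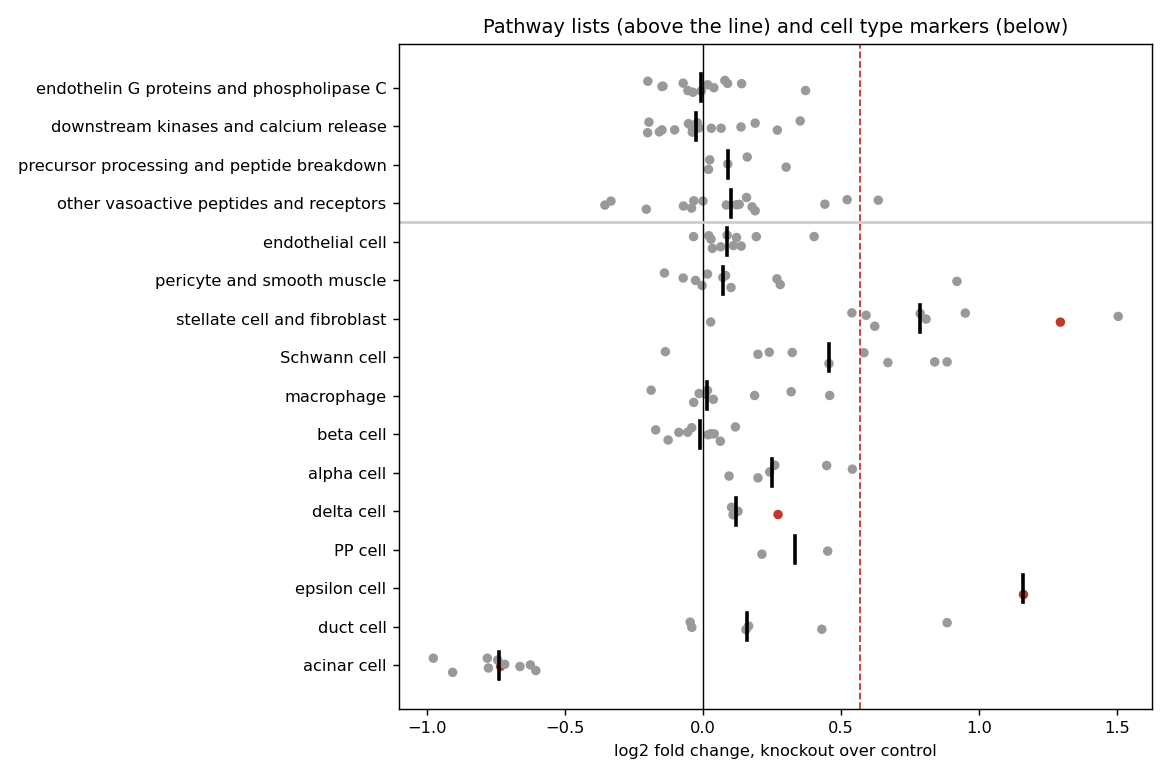
Log2 fold change, knockout over control (horizontal axis), of each tested gene (points) of the pathway lists above the grey line and the cell type marker lists below it, with the list median as a black bar and genes past an adjusted p of 0.05 in red. The dashed line marks Edn3 at 0.57, and the pathway medians lie between -0.03 and 0.10. Marker medians run from -0.74 (acinar cell) to 1.16 (epsilon cell, with Ghrl alone). The alpha cell, stellate cell and Schwann cell medians lie at 0.25, 0.79 and 0.46, and those of beta cells and macrophages at -0.01 and 0.02.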

How the data were processed

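The table of 55487 genes that the authors deposited holds 1 signal column per library, read counts scaled for library size per the file headers. Each value was a whole multiple of what 1 read is worth (true of 100% of values, with a tolerance of 0.01 reads), which gave back the reads. The authors' deposited log2 fold change, its standard error, test score and p-value columns were quoted for Edn3 only. Tools in the submitters' processing notes are STAR 2.5.1b, featureCounts 1.6.0, CASAVA 1.4 and DESeq2 1.22.2, with build GRCm38. The annotation and strand setting are not given in the sources used here. Control columns, numbered 2 and 3 unlike the labels, were matched to their group only.

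The main test was limma 3.58.1 (R 4.3.3) with a mean-variance trend on log2(value + 1), over 16589 genes reaching 10 in 2 or more libraries. P-values were two-sided and Benjamini-Hochberg adjusted over all of these genes, at a threshold of 0.05. Adding 1 understates changes of low genes. edgeR 4.0.16 (TMM) and DESeq2 1.42.0 were run on the recovered reads. Only the limma steps were tested on simulated data. An exact permutation test of 2 against 2 libraries cannot go below p = 0.333. Chi-square over degrees of freedom was 9.85 within the knockout pair and 10.1 within the control pair, so libraries of a genotype differed beyond counting error. Exon positions come from GENCODE M21.

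Members and lists were chosen with earlier results of these data known. Named genes were the members, Ggcx, the called genes of each pathway list or else its 2 most abundant, the 3 genes nearest to Edn3 and the most abundant gene of each marker list. Mme, Kel, Cma1, Mcpt4 and the list genes past the test in any setting were named after their values were seen. Some genes of these lists are not reported here.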

Additional observations from a re-analysis of the deposited data

How the results depend on the processing

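Of 14 alternatives, 11 kept the Edn3 call, and its log2 fold change stayed between 0.48 and 0.66. No alternative called another member. Members called higher came to 0 with no filter on low values and 0 without the mean-variance trend, and to 0 to 1 when 1 library was left out. Over all genes, 1 was higher and 1 lower with no filter, 19 and 32 with a filter at 50, 85 and 124 with robust empirical Bayes, and 113 and 208 with DESeq2, which left 14647 adjusted p-values NA, those of Edn1 and Edn2 among them. Without the trend 0 were higher and 0 lower (1841 at an unadjusted p under 0.05), and a common upper quartile gave 33 lower. Leaving out 1 library, with the lone library of a genotype assumed to vary like the others, gave 49 to 178 higher and 47 to 219 lower. Pathway genes called came to 0 to 1 when 1 library was left out. The calls of Ggcx, Ghrl, Dcn, Rbp4 and Try4 were lost as well with no filter and without the trend. Robust empirical Bayes also ended the calls of Ggcx (adjusted p = 0.294) and Dcn (0.0709), the filter at 50 those of Dcn (0.0556) and Rbp4 (0.0526), and a common total that of Rbp4 (0.05005). The cause was not tested. Edn2 was not tested under the filter at 50. Near 0, the sign turned without 1 library for Ece1 (-0.018 to 0.037), Furin (-0.011 to 0.058), Ace (-0.29 to 0.15) and Arhgef12 (-0.10 to 0.023). No paired analysis was possible because the control columns are numbered otherwise than the control samples. With 37 to 99 reads per library, counting limits what can be seen for Edn1, Edn2 and Ece2.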
